A study of Mus musculus with 4 samples.

Results

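Zscan4 genes and other genes of the 2-cell-stage embryo, 9 in all, were followed across 4 libraries of mouse embryonic stem cells. These were Zscan4c, Zscan4d, Zscan4f, Usp17le, Gm8300, Zfp750, Zfp352, Tmem92 and Arg2, taken by symbol, and all 9 had a row among the 32592 genes of the table. The cells were CCE, an embryonic stem cell line of strain 129/Sv kept without feeder cells in serum with leukemia inhibitory factor (LIF). In 2 libraries, labelled knockdown, the protocol names viral delivery of hairpin RNAs (sheIF4A2-2 or sheIF4A2-3) against the translation initiation helicase gene Eif4a2. In the other 2, labelled control, it names the control constructs shLuc and shEV. The labels do not say which hairpin went into which library. All cells went through 3 days of puromycin at 1 µg/mL and were collected on day 4.5, and polyadenylated RNA was sequenced.

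In the mouse, the embryonic genome is switched on at the 2-cell stage, with a short burst of genes such as the Zscan4 cluster and the retroelement MERVL. Embryonic stem cells resemble a later stage, but a small and changing minority of them enters a 2-cell-like or Zscan4-positive state, in which these genes are transcribed, and then leaves it. The transcription factor Dux drives much of this programme, and Zscan4 proteins act on telomeres and on chromatin. A bulk library averages over all cells, so more cells in that state and more RNA per such cell cannot be told apart here.

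The Zscan4 genes lie in tandem on chromosome 7, and Zscan4c, Zscan4d and Zscan4f together span 397 kb of GRCm38. Their promoters are shown because they differ at few positions, and that of Zfp352 because its gene gave almost no reads. Each is the 250 bases before the RefSeq start, with the letters TATAAA in capitals (RefSeq, GRCm38.p6, the C57BL/6J sequence; the cells are 129/Sv). The RefSeq table held 4 of the 9 genes.
Zscan4c: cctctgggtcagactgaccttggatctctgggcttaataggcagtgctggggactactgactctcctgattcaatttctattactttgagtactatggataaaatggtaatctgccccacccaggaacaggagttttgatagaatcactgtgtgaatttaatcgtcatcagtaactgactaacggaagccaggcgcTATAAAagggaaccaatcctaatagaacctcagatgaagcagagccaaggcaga
Zscan4d: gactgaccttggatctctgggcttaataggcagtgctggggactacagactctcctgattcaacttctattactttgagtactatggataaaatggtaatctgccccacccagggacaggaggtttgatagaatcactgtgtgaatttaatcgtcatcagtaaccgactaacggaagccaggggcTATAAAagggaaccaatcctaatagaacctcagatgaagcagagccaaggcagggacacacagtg
Zscan4f: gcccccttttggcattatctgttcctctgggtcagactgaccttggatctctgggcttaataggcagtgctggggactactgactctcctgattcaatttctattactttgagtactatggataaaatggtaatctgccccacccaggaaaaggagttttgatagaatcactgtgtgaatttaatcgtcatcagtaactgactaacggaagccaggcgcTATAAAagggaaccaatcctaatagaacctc
Zfp352: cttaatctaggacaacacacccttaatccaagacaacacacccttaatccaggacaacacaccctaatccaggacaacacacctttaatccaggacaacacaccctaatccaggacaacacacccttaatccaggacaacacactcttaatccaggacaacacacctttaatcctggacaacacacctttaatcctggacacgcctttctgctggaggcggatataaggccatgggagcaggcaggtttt
They lie at chr7:11005495-11005744 on the plus strand (Zscan4c), chr7:11166149-11166398 on the minus strand (Zscan4d), chr7:11397665-11397914 on the plus strand (Zscan4f) and chr4:90218570-90218819 on the plus strand (Zfp352). Over their aligned parts the promoters of Zscan4c and Zscan4f were 99.6% identical, and that of Zscan4d was 97.1% identical to Zscan4c and 96.8% to Zscan4f. TATAAA stood on the plus strand in each Zscan4 promoter, its first base 54, 65 and 31 bases before the annotated start of Zscan4c, Zscan4d and Zscan4f, and in 7.59% of the 32851 promoters of this length. It was not found in the Zfp352 window. A Dux-like motif (TGATT and AATCA around 1 free base) and a Zscan4-like motif (TGCACAC), searched on both strands, stood in 0.0304% and 3.67% of all windows and in none of these 4.

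The transcripts are as alike as the promoters. The longest GENCODE transcript of Zscan4c was 99.6% identical to that of Zscan4f and 97.5% to that of Zscan4d over the aligned bases. Of all stretches of 100 bases, the read length, that a transcript holds, 70.4% occurred in no other gene's transcripts for Zscan4d, 27.2% for Zscan4c and 10.5% for Zscan4f. The transcripts of Tmem92 and Zfp750 shared no such stretch with another gene, and Zfp352 kept 99.4%, Usp17le 91.3%, Gm8300 89.2% and Arg2 85.6% to itself. How reads that match several genes were treated is not given in the sources used here, so reads of single Zscan4 and Usp17l genes are uncertain, and sums over each family are given too. The annotation also has 6 further Zscan4 genes and pseudogenes. Their transcripts counted as other genes in the shares above, but no row of reads carried their names. The Zscan4 sums therefore cover 3 rows only.

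**Figure D1:**
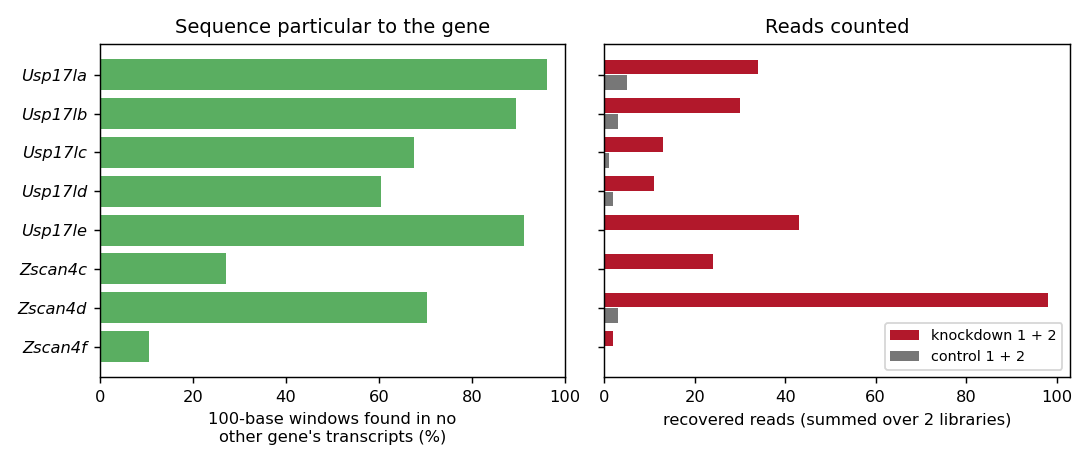
For the Zscan4 and Usp17l genes, left, the share of 100-base stretches of the longest transcript that occur in no other gene's transcripts (percent); right, recovered reads summed over the 2 knockdown libraries (red) and the 2 control libraries (grey). Zscan4d has the largest share among the Zscan4 genes (70.4%) and the most reads (98 against 3), and Zscan4f the smallest share (10.5%) and 2 reads.

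The table gives normalized counts, that is, reads scaled to an effective library size, and 1 read is worth 0.0736 to 0.0888 in 3 libraries and 0.226 in control 2. Control 2 was the shallowest library with 4604200 recovered reads, and the others held 10646302 to 13681765. The targeted gene went against its label: Eif4a2 had normalized counts of 752.5 (knockdown 1), 814 (knockdown 2), 530.6 (control 1) and 379 (control 2), so it was higher, not lower, under the knockdown label (log2 change 0.80, SE 0.15, limma adjusted p = 0.014). Directions below are therefore those of the libraries labelled knockdown against the libraries labelled control, not those of a measured loss of Eif4a2. Whether the labels were exchanged was not tested, and an exchange would turn every direction given here. The labels name no separate cultures. The p-values therefore reflect the scatter of these 4 samples alone, and that scatter may be technical.

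In the control libraries 7 of the 9 genes had at most 4 reads, Zfp750 and Arg2 being the exceptions, and 4 of them, Zscan4c, Zscan4f, Usp17le and Zfp352, had 0 reads in both controls. Enough reads for a test were present for 5 of the 9: Zscan4d, Usp17le, Gm8300, Zfp750 and Arg2. Of these, 4 rose in the libraries labelled knockdown and Arg2 did not pass, while 10.5% of all 14890 genes tested rose and 12.4% fell, 23% in all (limma on log2(value + 1), Benjamini-Hochberg adjusted p below 0.05). Zscan4d, Usp17le and Gm8300 passed the filter on low reads only through the libraries labelled knockdown, so their share of calls is a description and not evidence. The other 4, Zscan4c, Zscan4f, Zfp352 and Tmem92, were left out by the filter and are given by their reads.

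**Figure D2:**
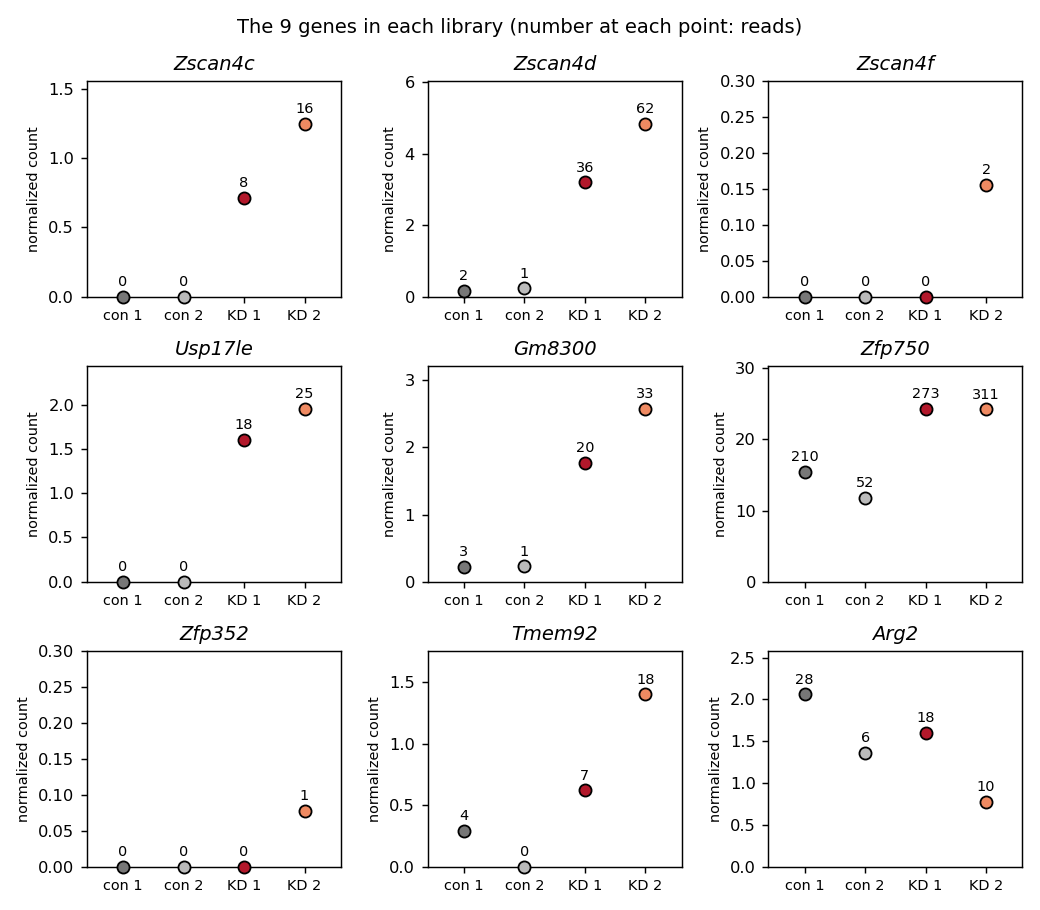
Normalized counts (vertical axes, each from 0 on its own scale) of the 9 genes in control 1 and 2 (grey) and knockdown 1 and 2 (red), with the number of reads at each point. The knockdown libraries lie above both controls for Zscan4c, Zscan4d, Usp17le, Gm8300, Zfp750 and Tmem92, and the groups overlap for Arg2, Zscan4f and Zfp352.

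Zscan4d (ENSMUSG00000090714, chromosome 7, 11161374 to 11166159 on the minus strand of GRCm38) had 36 reads in knockdown 1, 62 in knockdown 2, 2 in control 1 and 1 in control 2. On the normalized scale this was 3.20 and 4.83 against 0.147 and 0.226. Zscan4d, a zinc finger gene with a SCAN domain, was thus present in both knockdown libraries and at 1 or 2 reads in the controls, without overlap. The ratio of summed reads per effective size was 24.4 (95% exact interval 8.11 to 120, counting error only). Its log2 change was 2.06 (SE 0.25, limma adjusted p = 0.00472), which ranked 7 among 14890 genes from the highest, and the change is understated by the pseudocount of 1.

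Zscan4c (ENSMUSG00000054272, chromosome 7, 11005745 to 11010547 on the plus strand) had 8 and 16 reads in the knockdown libraries and none in either control. With the control group set at a floor of 3 reads, its ratio was 5.98. The 95% exact interval of the ratio without that floor began at 4.50 (counting error only). Zscan4f (ENSMUSG00000070828, chromosome 7, 11397915 to 11402318 on the plus strand) had 2 reads, both in knockdown 2, and no fold is given because both groups were under the floor. Zscan4c is known as the copy transcribed mainly in embryonic stem cells and Zscan4d as that of 2-cell embryos. Divided by the stretches particular to each gene, as if no other read had been counted, the reads of both knockdown libraries came to 6.41 per 100 stretches for Zscan4d (95% exact interval 5.20 to 7.81), 4.05 for Zscan4c (2.60 to 6.03) and 1.10 for Zscan4f (0.133 to 3.97). On that scale the intervals of Zscan4d and Zscan4c overlapped, and that of Zscan4f lay below that of Zscan4d and overlapped that of Zscan4c. The 3 rows together held 44 and 80 reads against 2 and 1, a ratio of 30.9 (95% exact interval 10.3 to 152).

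Usp17le, a deubiquitinase gene of the Dub family (ENSMUSG00000043073, chromosome 7, 104768049 to 104777470 on the minus strand), had 18 and 25 reads in the knockdown libraries and 0 in both controls. The normalized counts were 1.60 and 1.95 against 0 and 0. With the control group at the floor of 3 reads, the ratio of Usp17le was 10.7, and its 95% exact interval without that floor began at 8.34. Usp17le passed the test (limma adjusted p = 0.0088). Its log2 change was 1.47 with a pseudocount of 1, a size that the pseudocount sets. Its 4 paralogs with reads, none at 0 in both controls, were higher in both knockdown libraries as well. The same held for 32.1% of all genes tested, and nothing is read from the count of 4. Usp17la, at 13 and 21 reads against 4 and 1, rose (log2 change 0.92, SE 0.24, limma adjusted p = 0.0356). Usp17lb had 9 and 21 against 2 and 1, Usp17lc 5 and 8 against 0 and 1, and Usp17ld 3 and 8 against 1 and 1, each too few for the test, and the pseudogene row Usp17le-ps had none. For Usp17ld the 95% exact interval of the ratio, 0.897 to 38.1, included 1. Those of Usp17lb and Usp17lc began at 2.32 and 1.46 (counting error only). Over the 6 Usp17l rows the sums were 48 and 83 reads against 7 and 4, a ratio of 8.9 (95% exact interval 4.81 to 18.3).

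Gm8300, a protein-coding gene of a group related to the initiation factor gene Eif1a (ENSMUSG00000079034, chromosome 12, 87514316 to 87518266 on the plus strand), had 20 and 33 reads in the knockdown libraries and 3 and 1 in the controls. Its normalized counts were 1.78 and 2.57 against 0.221 and 0.226, and the groups were well apart. The ratio was 9.9 (95% exact interval 3.65 to 37.7), and the log2 change 1.36 (SE 0.24, limma adjusted p = 0.0119).

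Zfp750 is the one well-expressed gene of the 9; it encodes a zinc finger factor known for epidermal differentiation (ENSMUSG00000039238, chromosome 11, 121510978 to 121519333 on the minus strand). It had 273 and 311 reads against 210 and 52, or 24.2 normalized counts in both knockdown libraries against 15.5 and 11.8. Both knockdown libraries thus lay above both controls, which differed from each other more than the knockdown libraries did. Zfp750 rose from 13.6 ± 2.61 to 24.2 ± 0.015 (SD, n = 2 each), a 1.78-fold ratio of means (log2 change 0.80, SE 0.16, limma adjusted p = 0.0176).

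Tmem92, which encodes a transmembrane protein (ENSMUSG00000075610, chromosome 11, 94777217 to 94782703 on the minus strand), had 7 and 18 reads in the knockdown libraries and 4 and 0 in the controls. The lower knockdown library, at 0.621 normalized counts, lay above the higher control, at 0.294, and the ratio of summed reads was 4.67 (95% exact interval 1.61 to 18.5). Zfp352 (ENSMUSG00000070902, chromosome 4, 90218820 to 90225702 on the plus strand), a zinc finger gene of the early embryo, had a single read, in knockdown 2. Nearly all of its sequence is its own, so at this depth it was not detectable in 3 of the 4 libraries; a count of 0 allows up to 0.221 to 0.679 normalized counts in them.

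Arg2, the mitochondrial arginase (ENSMUSG00000021125, chromosome 12, 79130777 to 79156301 on the plus strand), did not follow the others. It had 18 and 10 reads in the knockdown libraries and 28 and 6 in the controls, or 1.60 and 0.779 against 2.06 and 1.36 normalized counts. The groups overlapped, and the gene did not pass (log2 change -0.32, SE 0.28, limma adjusted p = 0.437). In all, 186 of its 1329 stretches also occurred in transcripts of Vti1b on either strand, and since no source gives the strand setting, a read there can belong to either gene. Vti1b, a SNARE gene, fell from 53.7 ± 3.78 to 35.5 ± 4.05 normalized counts (SD, n = 2 each; limma adjusted p = 0.0178).

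Without the filter on low reads, all 9 genes entered the fit and 5 rose, with Zscan4c added (limma adjusted p = 0.0179) and Tmem92 not passing (limma adjusted p = 0.0664), against 6.18% of all genes that rose in that fit. The authors' deposited table gives 6 of the 9 as higher at an adjusted p below 0.05 and 0 as lower. Those 6 were Zscan4c (adjusted p = 0.000265), Zscan4d (2.09e-12), Usp17le (2.82e-08), Gm8300 (1.06e-06), Zfp750 (0.000326) and Tmem92 (0.0298) in the authors' deposited table. Over all its 32592 rows 5.91% were higher. Only 20934 of these rows had a read, as all 9 genes did, so that share is too low a background. The 9 genes were chosen with earlier results of these data known, so their counts are a description and not evidence. Both knockdown libraries lay above both controls for 4 of the 5 tested genes and for 32.1% of all genes tested. The reverse held for 0 of the 5 and for 34.6% of all. Zscan4d, Usp17le and Gm8300 passed the filter only through the knockdown libraries. Their place above the controls was thus nearly set by the filter, and the count of 4 is a description and not evidence. The exact permutation test of 2 against 2 libraries cannot go below p = 0.333, so each call rests on the spread shared across genes. Without knockdown 2, Zscan4d alone passed, and Usp17le (limma adjusted p = 0.080), Gm8300 (0.132) and Zfp750 (0.122) did not; without knockdown 1, Zfp750 did not pass (limma adjusted p = 0.0918). The adjusted p of Usp17le, Gm8300 and Zfp750 went down to 4.98e-07, 1.81e-06 and 4.18e-11 under other settings, all without control 1.

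**Figure D3:**
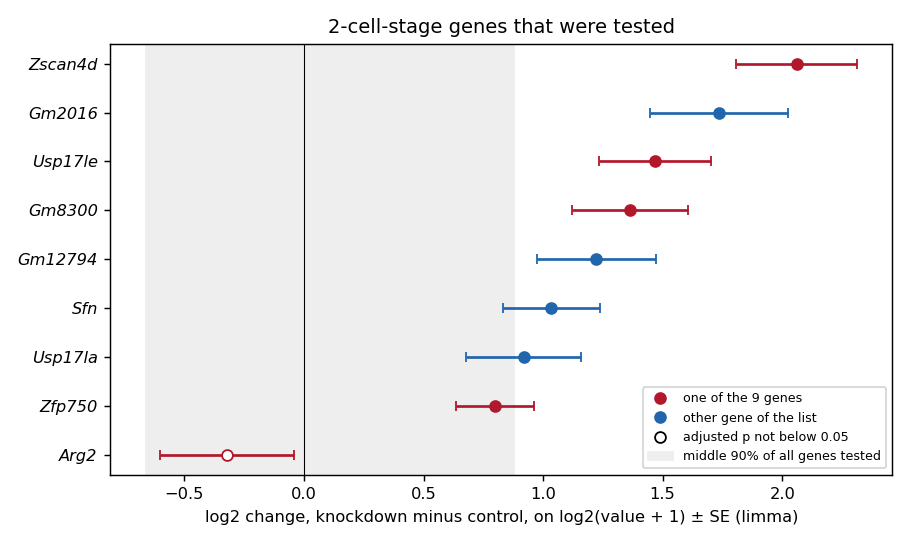
Log2 change (knockdown minus control, on log2(value + 1), with its SE from limma) of the 2-cell-stage genes that could be tested; red marks the 9 genes followed here, blue other genes of the list, and an open point a gene that did not pass. Zscan4d, at 2.06, is the highest, Arg2, at -0.32, is the only one below 0, and the grey band holds the middle 90% of all genes tested.

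Between the 2 knockdown libraries the ratios of single genes varied, but their 95% exact intervals overlapped one another. Per effective size, the Zscan4 rows together were 1.59-fold higher in knockdown 2 than in knockdown 1 (95% exact interval 1.09 to 2.36), and the Usp17l rows 1.52-fold (1.05 to 2.21). These intervals hold counting error only, and over all genes the knockdown libraries differed by more than that (chi-square per degree of freedom 2), so they are too narrow for a difference between samples. For single genes the interval included 1: the ratio was 1.51 for Zscan4d (0.986 to 2.35), 1.45 for Gm8300 (0.806 to 2.66) and 1.22 for Usp17le (0.638 to 2.37). The ratio of Zfp750 lay nearest to 1, at 0.999 (0.846 to 1.18), and that of Arg2 was the lowest of these, at 0.487 (0.201 to 1.11). The labels do not say which hairpin each library received, so no hairpin can be set beside these ratios.

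Levels were compared between genes per full transcript length, with shared stretches included. As means of the 2 knockdown libraries, in normalized counts per kilobase, Zfp750 stood at 7.50, Zscan4d at 1.77, Gm8300 at 1.16, Usp17le at 0.94, Arg2 at 0.832, Tmem92 at 0.495, Zscan4c at 0.43, Zscan4f at 0.0426 and Zfp352 at 0.0171. In this order, the ranges of the 2 libraries did not overlap between Zfp750 and Zscan4d, between Zscan4d and Gm8300, or between Zscan4c and Zscan4f, and they overlapped between all other neighbours. The order of the Zscan4 genes depends on how their shared stretches are treated. Per 100 stretches particular to each gene, the interval of Zscan4c (2.60 to 6.03) overlapped those of Zscan4d (5.20 to 7.81) and Zscan4f (0.133 to 3.97). In the controls Zfp750 (4.21 per kilobase) and Arg2 (1.20) led, and the next gene, Gm8300, stood at 0.119. Zscan4d was at 0.0822 there.

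A wider list of 78 2-cell-stage symbols, the 9 included, matched 41 rows, of which 10 had no read in any library. Beyond the 9, 4 of its genes had enough reads for a test, and all 4 rose, 10.5% being the share of all genes tested that did: Usp17la, Gm2016, Gm12794 and Sfn. Gm2016 stood at 22 and 46 reads against 3 and 0; the ratio was 16.9 (95% exact interval 5.55 to 84.1; log2 change 1.74, SE 0.29, limma adjusted p = 0.00995). Gm12794 stood at 12 and 21 reads with none in the controls (limma adjusted p = 0.0172). Against the floor of 3 reads its ratio was 8.22, and the 95% exact interval without that floor began at 6.32. Sfn, which encodes a 14-3-3 protein of epithelia, was at 61.7 and 73.4 normalized counts against 40.5 and 25.8, a 2.04-fold ratio of means (limma adjusted p = 0.0154). Usp17la, Gm2016 and Gm12794, like 3 of the 9 genes, passed the filter only through the knockdown libraries, so the count of 4 is a description and nothing is read from it against the share of all genes. Of the 9 genes of the whole list that were tested, the 5 described above included, 8 were called by limma, against 5 without knockdown 1 and 2 without knockdown 2. Among genes with too few reads for the test and chosen after their values were seen, Gm5662 had 7 and 11 reads against 1 and 0, Obox6 1 and 13 against 1 and 0, and Gm13119 1 and 9 against 0 and 1, so that the latter 2 stood on knockdown 2. Some other such rows did not lean to the knockdown libraries. Pramel6 had 0 and 3 reads against 4 and 0, Gm4340 0 and 2 against 0 and 1, and Olfr376 1 and 0 against 0 and 1. The rows Obox1, Obox2, Obox3, Obox5 and Sp110 had no read, and Duxf3, the gene of Dux, had 1, in knockdown 1.

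**Figure D4:**
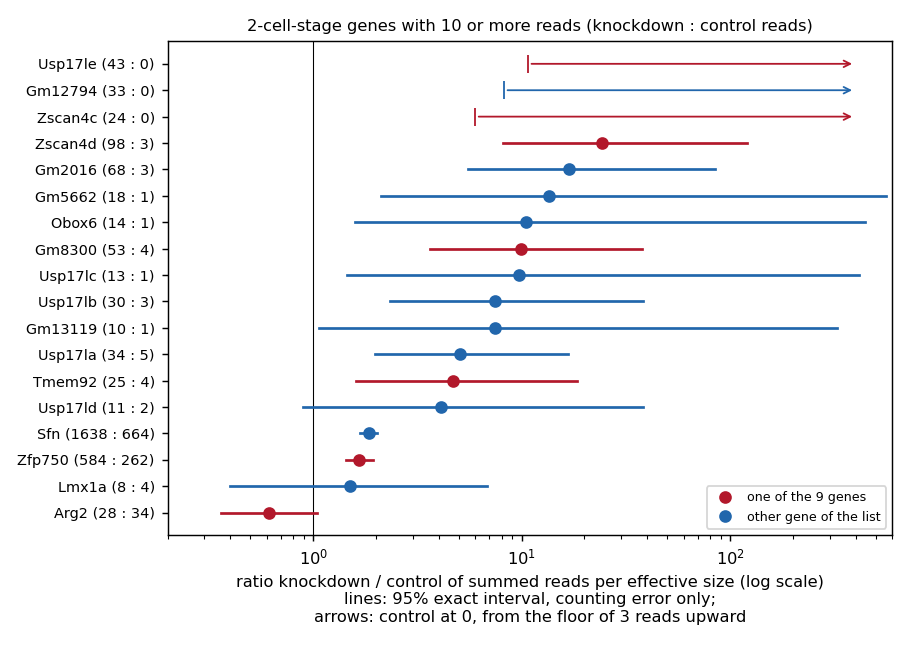
Ratio of knockdown to control (horizontal log axis, reads summed over 2 libraries per effective size, with the 95% exact interval, counting error only) for listed 2-cell-stage genes with 10 or more reads. The numbers beside each name are knockdown and control reads. For genes at 0 in the controls, arrows start at the ratio given by a floor of 3 reads, which lies above the lower limit of the exact interval. Zscan4d stands at 24.4, Zfp750, Sfn and Lmx1a below 2, and Arg2 at 0.615, with an interval up to 1.05.

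Genes that regulate the 2-cell-like state, such as chromatin repressors and Dux activators, were mostly well expressed and did not share this pattern of near absence in the controls. Of 42 listed, all tested, 2 rose, 4 fell and 36 did not pass, with a median log2 change of -0.09, beside 10.5% and 12.4% of all genes and a median of -0.01. Tet1 and Tet2, 5-methylcytosine oxidases, fell from 773 ± 11.8 to 463.3 ± 15.6 and from 467.1 ± 52.8 to 283 ± 10.6 normalized counts (limma adjusted p = 0.00378 and 0.00615). Tbx3, a T-box factor, fell from 698.4 ± 7.78 to 438.2 ± 3.86, and Mga, a subunit of a Polycomb complex that represses germline genes, from 386.7 ± 3.5 to 281.9 ± 15.1 (limma adjusted p = 0.00394 and 0.0113). Tet3, of the same family as Tet1, rose from 37 ± 0.749 to 48.8 ± 3.12 (limma adjusted p = 0.0385; SD, n = 2 each). Dppa2 and Dppa4, activators of Dux, did not pass (log2 change -0.24 and 0.01; limma adjusted p = 0.118 and 0.926; chosen after their values were seen). Without knockdown 1 or 2 the median log2 change of the 42 regulators was -0.09 each. It was -0.13 without control 1 and -0.01 without control 2. Under scaling by library size alone, with all libraries kept, 9 regulators were called.

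The nearest tested genes on either side, lay 18 to 1025 kb away on the GRCm38 annotation. Of 14 such genes outside the 9, 2 rose, 2 fell and 10 did not pass, beside 10.5% and 12.4% of all genes that rose and fell, so these counts were near the background. Beside the Zscan4 cluster, Zik1 (log2 change -0.04, limma adjusted p = 0.881) and Gm10179 (log2 change -0.01, limma adjusted p = 0.977) did not pass, at distances of 510.4 kb before Zscan4c and 683.6 kb after Zscan4f. The 2 that rose were Gm2016, 355.8 kb after Gm8300, and Col1a1, a fibrillar collagen gene 153.5 kb after Tmem92 (log2 change 1.27, limma adjusted p = 0.0121), and those that fell were Gm16464 beside Usp17le and Fn3krp beside Zfp750 (limma adjusted p = 0.0218 and 0.0372). Cdkn2b and Elavl2 beside Zfp352, Pigh and Rdh11 beside Arg2, B3gntl1, Snw1, Gm4887 and Gm11545 did not pass either.

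By distance between centred log2(value + 1) profiles over the 4 libraries, the tested named genes most like Zscan4d were Ap3b2 (0.19), Sez6 (0.26), Slc22a17 (0.36), Msln (0.36) and Fzd2 (0.39). This ranking left out the 9 genes and all symbols of Gm with digits or ending in Rik. Other 2-cell-stage genes with such symbols, such as Gm2016, were therefore not ranked. They had more reads than Zscan4d in the controls. Ap3b2, a subunit of the neuronal AP-3 adaptor, was at 10.3 and 13.5 normalized counts against 1.77 and 2.49, and Fzd2, a Wnt receptor gene, at 36.4 and 38.1 against 9.49 and 10.4. Usp17le (0.63) and Gm8300 (0.70) lay farther from Zscan4d on this scale than the ranked genes did, Zfp750 at 1.34 and Arg2 at 2.51. The pseudocount of 1 shrinks the changes of genes with few reads, so these distances do not rank likeness in fold change. The ratio of summed reads was 24.4 for Zscan4d, 9.90 for Gm8300 and 3.84 for Fzd2.

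Base content and cell markers are given beside these results, and their part in them was not tested. Among all genes tested, 10.5% rose and 12.4% fell. Of the 9 transcripts, 5, the Zscan4 genes, Gm8300 and Zfp352, fell in the fifth of tested genes lowest in GC content (up to 44.3%), where 4.26% of genes rose and 19.3% fell, against 19% and 6.18% in the fifth highest in GC. Embryonic stem cell markers were all present, and 4 of 10 fell and 0 rose in limma. Their median log2 change was -0.37, and -0.45 to -0.35 with each library left out in turn. Their summed level was 9573 and 9196 normalized counts in the knockdown libraries and 12646 and 12268 in the controls. Of 10 germline markers, limma gave 5 that rose and 0 that fell, with sums of 165.8 and 170.3 against 113.4 and 81.7. The median log2 change was 0.72, and 0.69 to 0.97 with each library left out in turn. Of 12 trophectoderm markers, 10 tested, 2 rose and 1 fell, with sums of 175.3 and 186.5 against 163.3 and 126.7 and Elf5 at 0. The median log2 change was 0.36, and 0.25 to 0.36 with each library left out in turn. Of 15 fibroblast markers, 9 tested, 3 rose and 1 fell, with 0 that fell under scaling by library size alone. Their sums were 1272 and 1290 against 1464 and 1320, with Dcn, Lum and S100a4 at 0. The median log2 change was 0.56, and 0.35 to 0.73 with each library left out in turn. Of 10 primitive endoderm markers 0 rose and 1 fell in limma, with sums of 281.3 and 279.2 against 307.6 and 321.5. The median log2 change was 0.03, and -0.03 to 0.13 with each library left out in turn.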

How the data were processed

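Polyadenylated RNA, from 1 µg of total RNA per sample, was sequenced as single-end reads of 100 bases. Bowtie2 2.3.4.3, SAMtools 1.9, HTSeq 0.11.2, edgeR 3.26.8 and build mm9 are listed without roles, per the submitters' processing notes; for the annotation and the strand setting, the state is "not given in the sources used here". What the authors deposited as signal is gene counts scaled to an effective library size: 100% of values are whole multiples of the worth of 1 read, within 0.001. Per the file headers, the authors' deposited comparison holds log2 fold changes and log2 CPM, a likelihood ratio score and p-values with their adjusted values.

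Genes and lists were chosen with earlier results of these data known. Recovered reads were filtered with filterByExpr of edgeR 4.0.16, which left 14890 genes, and log2(value + 1) was fitted with limma 3.58.1 (variance trend, two-sided, Benjamini-Hochberg over all 14890 genes, called below 0.05) in R 4.3.3. A run of the fit on simulated counts gave every library the same dispersion. It therefore does not cover the unequal spread of the replicates given below. Ratios of reads carry exact conditional binomial 95% intervals. Intervals and the floor of 3 reads cover counting error only: with no molecular identifiers, PCR copies count as separate reads. Genes matched GENCODE M21 (GRCm38) by ID, 32590 of 32592. Named were the 9 genes, their Zscan4 and Usp17l paralogs, called genes of the lists by smallest p (up to 10 and 6), nearest tested neighbours and the 5 profiles closest to Zscan4d, the 9 genes and symbols of Gm with digits or ending in Rik left out. A gene that this rule takes is not reported here. Replicates 1 and 2 differed by more than sampling noise (chi-square per degree of freedom 2 in knockdown and 13.3 in control), so none was taken for a duplicate; only the read ratios sum over the 2 libraries of a group, and their intervals leave out the spread between libraries. Alternatives were other pseudocounts, filters, scalings, edgeR's quasi-likelihood test, DESeq2 1.42.0, a replicate block, thinning and leaving out each library.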

Additional observations from a re-analysis of the deposited data

How the results depend on the processing

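Zscan4d was higher and passed under all 11 settings other than leaving out a library and without each library in turn (log2 change 1.13 to 4.59). The number of the 9 genes called, all of them higher, was 4 and lay between 2 and 5 over these settings. It was 2 in DESeq2, which gave an adjusted p to 2 of the 9 only, both called, and lay between 1 and 4 without single libraries (1 without knockdown 2). The wider 2-cell-stage list had 8 genes called, 2 to 8 without single libraries, 3 in DESeq2 (of 3 with an adjusted p) and 4 after thinning all libraries to the total of control 2, a setting chosen after seeing the data; the 4 were all that stayed testable, and Usp17le was not among them. All genes called numbered 3418, with 1932 without a variance trend, 2219 in DESeq2 and 653 to 7724 without single libraries; a fit without a library takes its spread from the other group alone, and the median absolute log2 difference was 0.198 between the controls and 0.0955 between the knockdown libraries. Regulators called numbered 6, with 3 without a variance trend and 3 to 22 without single libraries; their other settings were added after seeing the data. The cause of these shifts was not tested. Scaling by library size alone shifted the median log2 change over all genes from -0.01 to 0.10, and 4 of the 9 genes were called higher there too. The replicate block called 4632 genes and 4 of the 9, against 3418 and 4; same-numbered libraries deviated together with r = 0.036 over genes and share only a number. Control 2, with 4604200 reads, limits what low genes can show: 3 reads there are 0.679 normalized counts.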
